A study of Mus musculus with 2 samples.

Results

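The genes examined were the 4 mouse Fc gamma receptor genes Fcgr1, Fcgr2b, Fcgr3 and Fcgr4, the gene of the signalling chain that the activating receptors share, Fcer1g, and the gene of the neonatal Fc receptor, Fcgrt. They were chosen by symbol and not by their values, and all 6 of them were found, each with UMIs in both libraries, among the 32524 genes of the deposited tables. Their levels were read in synovial myeloid cells of mice with K/BxN serum transfer arthritis (K/BxN-STA), a disease started by injected antibodies.

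The mice were wild-type C57BL/6 animals, aged 7 to 10 weeks when they entered the study, that received 1 mg β-glucan, a fungal cell wall sugar used to train innate immune cells, or PBS intraperitoneally 7 days before arthritis was induced. CD45+CD11b+ cells, the sort gate for myeloid cells, were taken from the hind paws at day 17 of arthritis, and the cells of 4 mice per group formed 1 single-cell library, so no cell can be assigned to a mouse. The deposited sample records describe arthritis by an antibody cocktail and lipopolysaccharide, whereas the series' design and the methods name K/BxN-STA, and both agree on the sort, its day and the pre-treatment. Both libraries came from arthritic mice, so the comparison is between pre-treatments and not with a healthy joint.

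Fc gamma receptors bind the constant part of IgG and tie antibodies to the cells that act on them. FcγRI, FcγRIII and FcγRIV, the products of Fcgr1, Fcgr3 and Fcgr4, activate the cell through the ITAM of the paired FcRγ chain, the product of Fcer1g, without which they do not reach the surface. FcγRIIB, the product of Fcgr2b, carries an ITIM and inhibits, and the neonatal receptor FcRn, the product of Fcgrt, returns IgG from endosomes to the surface instead of letting it be degraded. In K/BxN-STA, IgG against glucose-6-phosphate isomerase forms immune complexes in the joint, and the disease needs activating Fc gamma receptors, neutrophils and the complement peptide C5a.

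Of 12956 barcodes, 10249 passed a filter of 500 or more genes and no more than 10% mitochondrial UMIs, 5696 of the β-glucan library and 4553 of the PBS library, with medians of 12457.5 and 14475 UMIs per cell. The cells were clustered, without using the 6 genes, into 20 clusters, and 10 of these, with 4598 β-glucan and 3653 PBS cells, formed the main myeloid compartment of macrophage-like cells, antigen-presenting cell-like (APC-like) cells, conventional dendritic cell type 1-like (cDC1-like) cells and unnamed cluster 16. Macrophage-like clusters 0, 1 and 5 each had a marker of another type (F13a1, Vcan and Ctsk) and none of their own among their 10 leading genes, so libraries were compared over the whole compartment and cluster by cluster, and not over macrophage-like cells as a class. Levels are CPM, the UMIs of a gene over those of all genes in the summed cells, scaled to the usual common total, with exact Poisson intervals for a level and exact Clopper-Pearson intervals for a share, at 95%. These intervals cover counting error only. Each group is 1 library, so differences between the groups could not be checked against replicates and carry no p-value. Of the barcode sequences, 7 occurred in both libraries, and 2 of these passed the filter in both. The doublet caller Scrublet marked only 2 cells and so did not work, and doublets were kept.

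Fcgr2b, Fcgr4, Fcgr3 and Fcer1g lie within 276.034 kb of chromosome 1 in the GRCm39 build (170786186 to 171062219), whereas Fcgr1 lies on chromosome 3 (96190225 to 96201338) and Fcgrt on chromosome 7 (44742412 to 44756819). Fcgr4 (170846466 to 170857330) stands on the plus strand, and the other 5 genes stand on the minus strand. Fcgr3 starts and ends at 170878738 and 170893549, Fcgr2b at 170786186 and 170804177, and Fcer1g at 171057141 and 171062219. Fcgr2b and Fcgr3 share stretches of 90 bases with each other. In all, 3.47% of such stretches in Fcgr2b transcripts and 2.94% in Fcgr3 transcripts occur in transcripts of some other gene, and reads there could be lost or split, while the other 4 genes share none. Fcer1g overlaps the noncoding gene Gm71631 on its own strand, Fcgr3 the microRNA gene Mir6546, and Fcgr4 a gene on each strand (Gm35090 and Gm26110), so a part of these UMIs could be assigned differently under another annotation. Fcgr2b and Fcgrt overlap Gm38204 and Gm45669 on the opposite strand, and Fcgr1 overlaps no gene.

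The 80 bases before the start of each gene, from RefSeq on GRCm38.p6, are shown because the genes differed in the clusters where they were highest. All 6 genes matched an entry, and the first start listed for a gene was used. Set against Fcgr4 and Fcer1g beside it, the Fcgr3 start used lies inside the gene span given above and not at its end. Each line runs 5′ to 3′ on the strand of the gene and ends at the base before the start. Capitals mark the letters GAGGAA or their reverse complement TTCCTC, a form of site that the myeloid factor PU.1 is known to bind. The shorter letters within these, GGAA or TTCC, also occur unmarked in each of the 6 sequences.
Fcgr1 (chr3:96293970-96294049, minus strand): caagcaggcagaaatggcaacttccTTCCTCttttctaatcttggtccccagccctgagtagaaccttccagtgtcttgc
Fcgr3 (chr1:171059404-171059483, minus strand): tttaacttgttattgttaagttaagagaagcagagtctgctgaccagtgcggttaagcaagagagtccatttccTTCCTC
Fcgr4 (chr1:171018846-171018925, plus strand): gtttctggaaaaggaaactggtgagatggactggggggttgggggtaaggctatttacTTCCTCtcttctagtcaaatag
Fcgr2b (chr1:170976072-170976151, minus strand): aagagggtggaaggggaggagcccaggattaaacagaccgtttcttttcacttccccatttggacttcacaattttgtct
Fcer1g (chr1:171234350-171234429, minus strand): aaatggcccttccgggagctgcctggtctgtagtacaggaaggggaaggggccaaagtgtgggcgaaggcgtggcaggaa
Fcgrt (chr7:45103823-45103902, minus strand): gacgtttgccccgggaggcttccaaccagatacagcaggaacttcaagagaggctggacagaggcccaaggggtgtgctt
The 3 activating receptor genes each held 1 copy of these letters within 80 bases of the start used, in the reverse orientation. For Fcgr3 that is an inner start, and its other starts were not read. The other 3 genes held none within 250 bases. Among 27025 promoters of the same table, 7.92% held the letters on either strand within 80 bases and 23.1% within 250 bases. These are matches of letters and not measured sites.

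Fcgr1, the gene of the high-affinity IgG receptor CD64, had its highest mean over the libraries in the 43 monocyte-like cells of cluster 19. This cluster was led by Plac8, Chil3 and Ly6c2. The level of Fcgr1 there was 264 CPM (198 to 346) in the β-glucan library and 87.5 CPM (57.2 to 128) in the PBS library, from 53 and 26 UMIs. APC-like cluster 6, led by class II genes and Ccr2, had 72.9 and 88.1 CPM, and macrophage-like cluster 7, led by Gpnmb, Apoe and Ms4a7, had 69.4 and 84.2 CPM. Cluster 6 overlapped both of the others over the libraries, so its place beside them is not set, whereas clusters 19 and 7 did not overlap. With PBS, however, the levels of clusters 6 and 7 both lay within the counting interval of cluster 19. Macrophage-like clusters 0 to 3 followed in a band from 38.0 to 56.0 CPM.

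The low end of Fcgr1 within the compartment was sharp. Macrophage-like cluster 5, led by Fxyd2 and Aqp1, had 12.9 and 17.7 CPM, and APC-like cluster 4, led by Ccl17 and Cd209a, had 17.3 and 11.6 CPM. These 2 clusters did not differ from each other beyond their spread over the libraries, and both lay below clusters 0 to 3, 6 and 7 in each library. cDC1-like cluster 18 had 3 and 6 Fcgr1 UMIs in all. Within the compartment the highest cluster mean was 10.5 times the lowest.

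Fcgr3, the gene of the low-affinity activating receptor CD16, was found in every cluster of the compartment but stayed low in cDC1-like cells. Macrophage-like cluster 7 was highest, at 466 CPM (449 to 484) with β-glucan and 491 CPM (472 to 511) with PBS, and its range over the libraries did not overlap that of APC-like cluster 6, at 415 and 454 CPM. Cluster 0, led by Ednrb, Cd163 and C4b, had 376 and 409.8 CPM, and clusters 3, 2 and 1 fell stepwise to 283 and 283 CPM. Cluster 5 had 209.6 and 230.2 CPM, and cDC1-like cluster 18 had 41.1 and 46.4 CPM. The 10 clusters kept almost the same order of Fcgr3 in both libraries, with a Spearman correlation of 0.96 across clusters, which share their library and its total.

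Fcgr4, the activating receptor that in mice marks a subset of monocytes and neutrophils, reached its highest levels in rare cells of the sort. Monocyte-like cluster 19 had 74.8 CPM (41.9 to 123) with β-glucan and 155 CPM (113 to 207) with PBS, and neutrophil-like cluster 9 had 21.7 CPM (17.1 to 27.1) and 59.5 CPM (47.6 to 73.5). Cluster 19 also held the neutrophil genes S100a8 and S100a9, far more with PBS, and their part in its Fcgr4 was not tested. At a resolution of 1, the neutrophil-like cells with few UMIs had Fcgr4 at 73.8 CPM (53.2 to 99.8) and 133 CPM (106 to 165). Monocyte-like and neutrophil-like cells are thus not ranked for Fcgr4. In the compartment, only clusters 6 and 7 exceeded 10 CPM in either library, with 10.9 and 20.9 CPM in cluster 6 and 12.2 and 15.6 CPM in cluster 7. Macrophage-like clusters 0, 1 and 5 lay between 2.25 and 3.52 CPM, on 16 to 37 UMIs each.

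Fcgr2b, the gene of the inhibitory receptor, was high or low in many of the same clusters as Fcgr3, and clusters 4 and 18 departed from this. APC-like cluster 6 had 400.4 CPM (385 to 417) with β-glucan and 446 CPM (429 to 465) with PBS, and clusters 0, 4 and 7 overlapped it or each other between 348 and 408 CPM. APC-like cluster 4, near the bottom for Fcgr1, thus stood at 359 and 383 CPM for Fcgr2b. Macrophage-like clusters 1, led by Vsig4 and S100b, and 5 stood at the other end, with 157 and 155 CPM and with 123 and 129 CPM. cDC1-like cells, low in all 3 activating genes, had 288 CPM (248 to 332) and 235 CPM (197 to 279).

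Fcer1g, the signalling chain, was high in every macrophage-like cluster. Its levels there ran from 944 CPM in cluster 5 of the β-glucan library to 1545 CPM in cluster 7 of the PBS library. The order of the 10 compartment clusters was less alike between the libraries than for the receptors, with a Spearman correlation of 0.52. Unnamed cluster 16, with 16 β-glucan and 77 PBS cells, was at 1574 and 1001 CPM. It stood highest of the 10 with β-glucan and next to lowest with PBS, and the correlation without it was not taken. The highest cluster of all was basophil/mast-like cluster 11, led by Mcpt4, Cma1 and Cpa3, with 1887 CPM (1776 to 2003) and 2288 CPM (2165 to 2416), where the chain is also part of the IgE receptor. cDC1-like cells had 428 and 426 CPM.

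Fcgrt, whose product recycles IgG and albumin, had a pattern of its own. Macrophage-like cluster 0 had 432 CPM (420 to 445) with β-glucan and 467 CPM (452 to 482) with PBS, and cluster 1 had 362 CPM (351 to 373) and 374 CPM (362 to 387), and their ranges did not overlap each other. Of the other 6 clusters of the compartment with over 50 cells per library, APC-like cluster 6 was highest at 170 and 162 CPM. Clusters 3, 4 and 5 stood at the low end, at 102 and 105 CPM, at 105 and 91.5 CPM and at 87.6 and 96.9 CPM, and neighbours among them overlapped. The Fcgrt-rich cluster 1 was among the poorest in Fcgr2b, and the Fcgrt-rich cluster 0 among the richest.

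**Figure D1:**
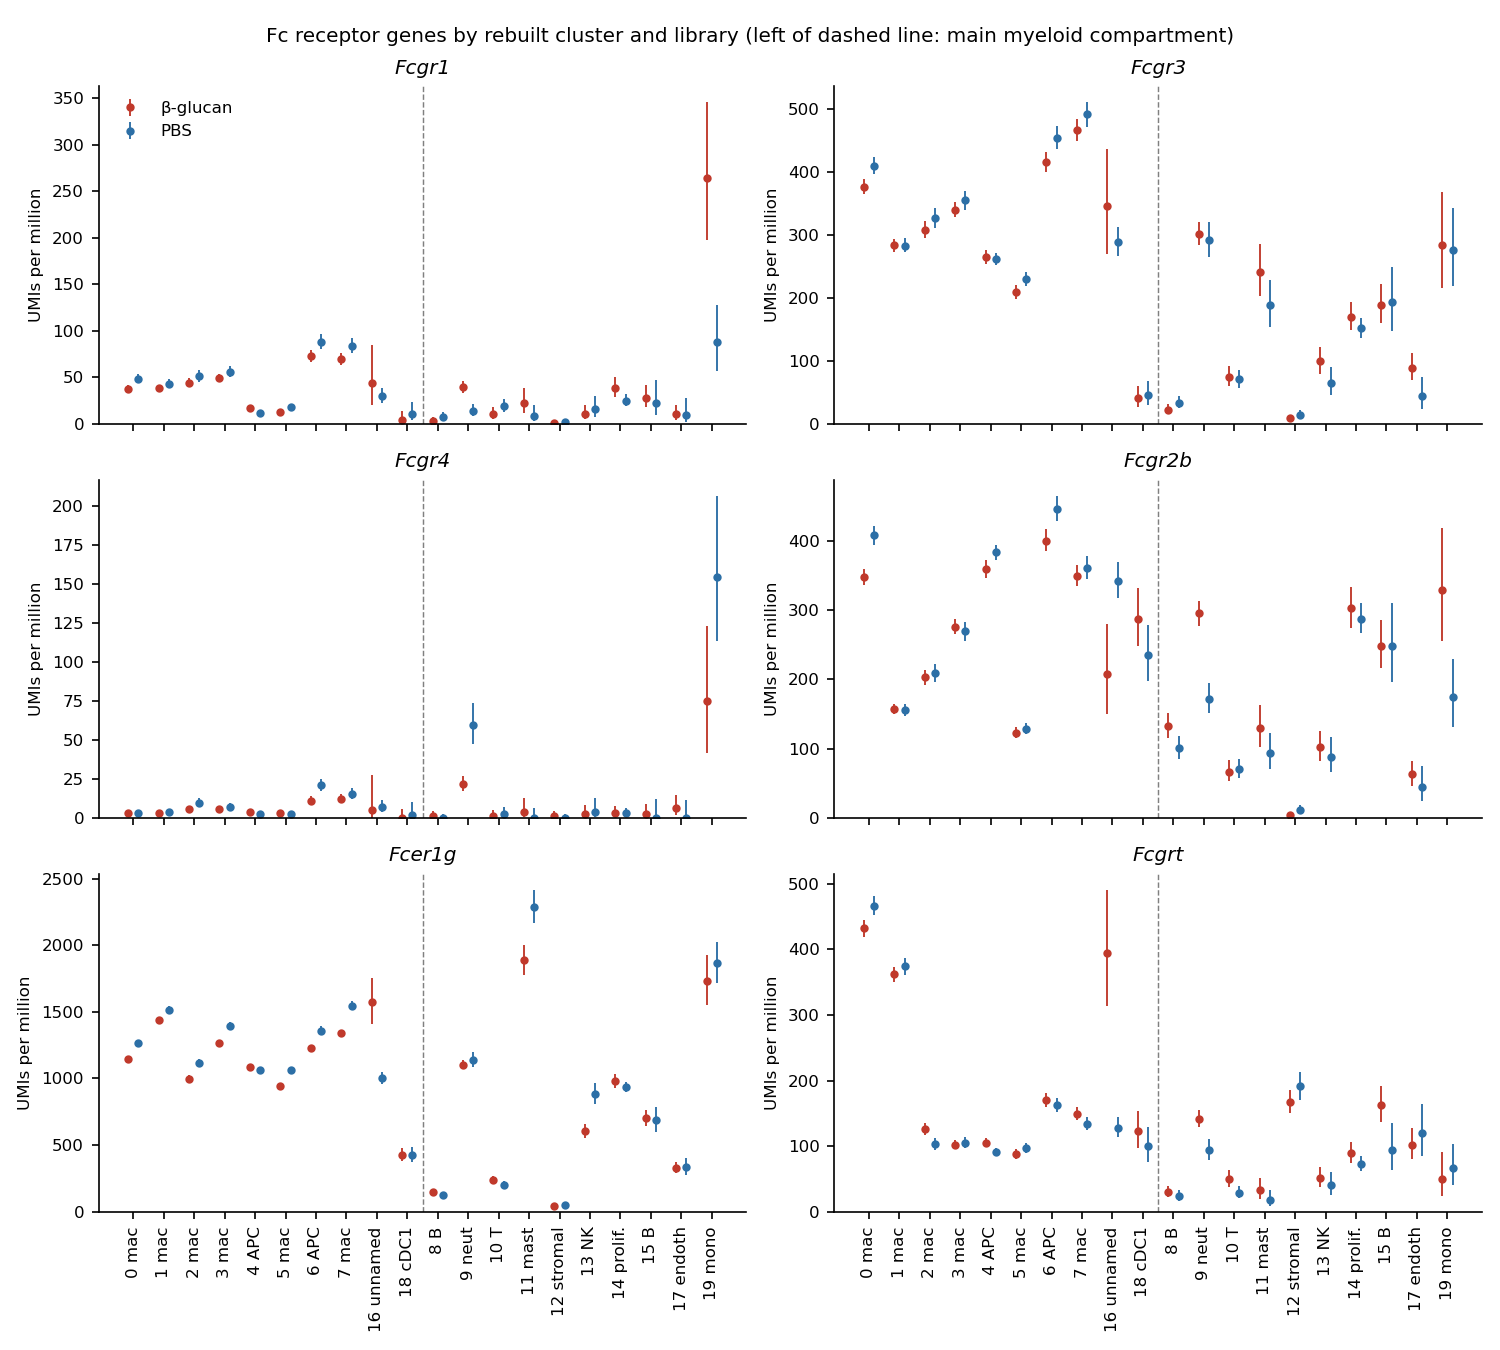
Level of each gene in CPM (vertical axes) in each of the 20 rebuilt clusters (horizontal axis) for the β-glucan library (red) and the PBS library (blue), with 95% Poisson intervals of counting error. Fcgr4 rises above 50 CPM only in monocyte-like cluster 19 and, with PBS, neutrophil-like cluster 9, and Fcgrt is highest in macrophage-like clusters 0 and 1 and, on 16 β-glucan cells, in unnamed cluster 16.

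The balance of inhibitory and activating receptors was read as the share of Fcgr2b among the UMIs of Fcgr1, Fcgr2b, Fcgr3 and Fcgr4. This share does not depend on the depth of a cell or on its total. UMIs are not scaled by gene length, so the share is compared between clusters and libraries and not read as a ratio of proteins. Over the compartment it was 42.2% (41.8 to 42.7) of 42045 UMIs with β-glucan and 44.0% (43.5 to 44.5) of 40864 UMIs with PBS. Macrophage-like cells had 39.3% with β-glucan and APC-like cells 49.9%, and with PBS these were 38.8% and 52.7%. APC-like cluster 6 was named by its leading class II genes, but scored higher for macrophage markers (0.90) than for APC markers (0.71). Its share, 44.5% and 44.2%, was below that of macrophage-like cluster 0, 45.5% and 46.9%, so the contrast of the classes does not hold for each of their clusters. The classes are not compared between the libraries, since their clusters were not held in equal parts: APC-like cluster 4 had 367 β-glucan and 527 PBS cells and APC-like cluster 6 had 463 and 379.

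The clusters spread far more widely than the libraries. Among the 8 compartment clusters with over 50 cells per library, APC-like cluster 4 had the highest share, 55.7% (54.3 to 57.0) and 58.2% (57.1 to 59.2). Macrophage-like cluster 1 had the lowest of these, 32.7% (31.4 to 33.9) and 32.0% (30.6 to 33.4). About 2.06 and 2.12 activating UMIs thus stood there beside each Fcgr2b UMI, against 0.797 and 0.719 in cluster 4. cDC1-like cells had 86.3% (81.0 to 90.6) of 219 receptor UMIs with β-glucan, and with PBS 132 of 165 receptor UMIs, an interval of 73.1% to 85.8%. In 7 of the 8 clusters with over 50 cells per library, the share in the PBS library was within 2 percentage points of that in the β-glucan library, and only in cluster 4 was it farther apart. The share was higher with β-glucan in 6 of these 8 clusters, and lower in clusters 0 and 4, whereas over the compartment it was lower. The compartment share also depends on the unequal parts in which the clusters were held.

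**Figure D2:**
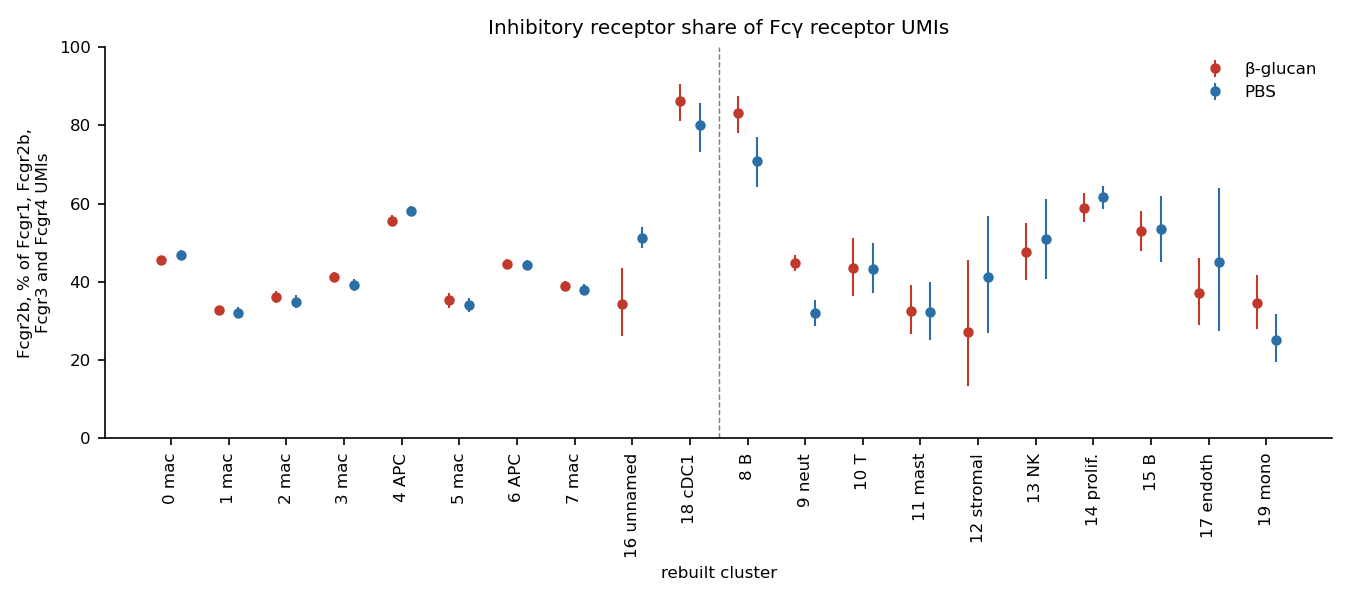
Fcgr2b as a percent of the summed Fcgr1, Fcgr2b, Fcgr3 and Fcgr4 UMIs (vertical axis) in each rebuilt cluster (horizontal axis), for the β-glucan library (red) and the PBS library (blue), with 95% Clopper-Pearson intervals of counting error. cDC1-like cluster 18 and B cell-like cluster 8 stand at 70.9% or above in both libraries, and macrophage-like cluster 1 lies between 32.0% and 32.7%.

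Many cells held both activating and inhibitory genes. After each compartment cell was thinned to 8000 UMIs, which left out 832 β-glucan and 523 PBS cells, 66.4% of β-glucan cells and 66.7% of PBS cells had a UMI of both Fcgr2b and Fcgr3. With or without the other gene, Fcgr2b was detected in 75.7% and 76.0% and Fcgr3 in 85.1% and 84.7% of these cells. Most cells with both thus follow from the 2 detection rates, and no association between the genes is drawn. Cells with Fcgr3 and no Fcgr2b made up 18.7% and 17.99%, and cells with Fcgr2b and no Fcgr3 made up 9.32% and 9.33%. At this depth 5.07% and 5.21% of cells had a UMI of none of the 4 receptor genes, and 1.25% and 1.18% had all 4.

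These shares followed the cluster. Both genes were found in 85.1% and 82.0% of cells of APC-like cluster 6 and in 38.8% and 37.0% of cells of macrophage-like cluster 5. Cluster 5 also had the highest share of cells with no receptor UMI among the clusters with over 50 cells per library, 20.7% and 14.5%. APC-like cluster 4 had the highest share of Fcgr2b without Fcgr3 among these clusters, 19.1% and 18.1%, and macrophage-like cluster 1 had 31.1% and 30.9% of cells with Fcgr3 without Fcgr2b. Fcer1g was detected in 98.7% or more of the thinned cells in each of these 8 clusters.

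**Figure D3:**
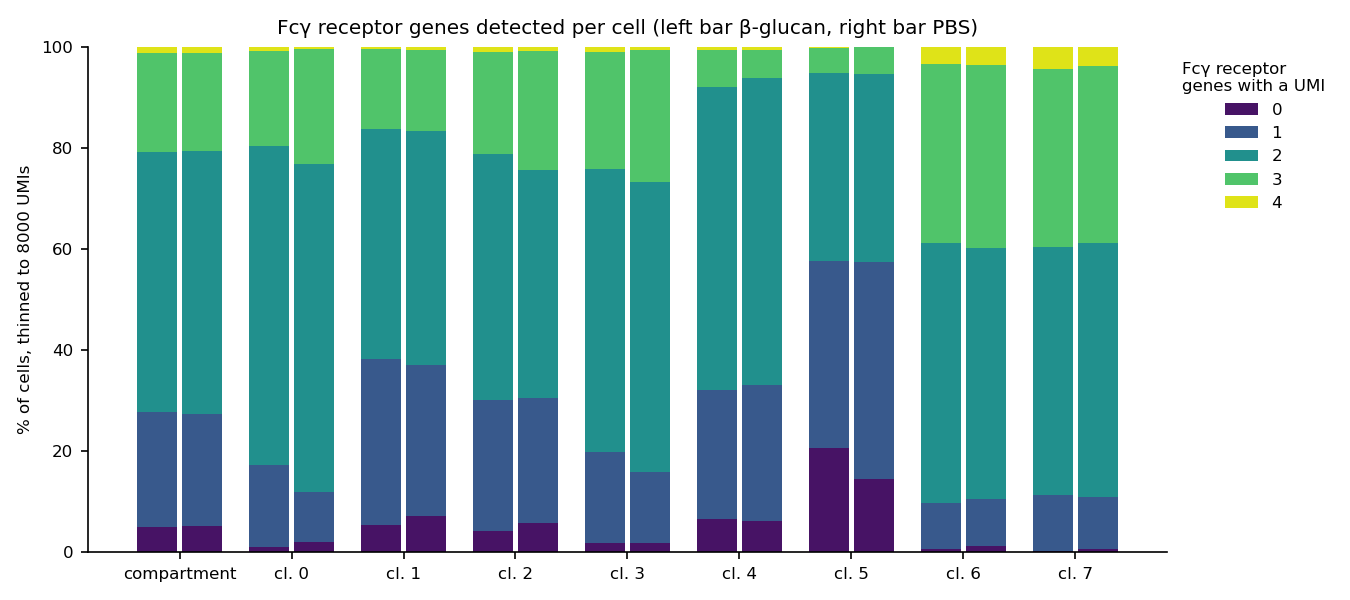
Percent of cells (vertical axis) with a UMI of 0, 1, 2, 3 or 4 of the genes Fcgr1, Fcgr2b, Fcgr3 and Fcgr4 after thinning to 8000 UMIs per cell, in the compartment and its 8 clusters with over 50 cells per library (horizontal axis), β-glucan left and PBS right in each pair. Over the compartment 51.5% of β-glucan cells and 52.1% of PBS cells had 2 of the genes, and clusters 6 and 7 had 3 genes in 34.9% to 36.1% of cells.

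Outside the compartment, RNA of lysed macrophages can enter any droplet, so each level was set beside that of the complement genes C1qa, C1qb and C1qc, which mark macrophages, as a percent of the level in macrophage-like cells of the same library. B cell-like cluster 8 had Fcgr2b at 54.6% with β-glucan and 39.9% with PBS, and C1q at 7.77% and 6.30%. Fcgr3 stood at 6.86% and 9.91% there, near C1q, so it was not told apart from such RNA. Fcgr2b is known as the Fc gamma receptor gene of B cells, and it made up 83.2% (78.1 to 87.5) and 70.9% (64.3 to 76.9) of the receptor UMIs of this cluster. S100a8 was at 109 and 1.99 CPM in it, and Ighg2b, an IgG heavy chain gene, had 0 and 67 UMIs. After thinning to 2000 UMIs, 18.2% (13.6 to 23.6) and 15.2% (10.6 to 20.7) of its cells had an Fcgr2b UMI, against 1.89% and 1.37% of stromal-like cells of cluster 12. Before thinning the shares were 38.9% and 36.5% of B cell-like cells, at median depths of 5538 and 6034 UMIs, and 4.72% and 6.85% of stromal-like cells, at 17689 and 20874 UMIs. B cell-like cluster 15, with 77 and 34 cells, did not show this pattern. Fcgr2b made up 53.1% and 53.5% of its receptor UMIs, with Fcgr3 at 57.6% and 56.4% and C1q at 59.8% and 47.3% of the macrophage-like level.

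Mast cell-like, natural killer-like, stromal-like and T cell-like clusters each held 1 or more of the genes above the C1q level. Basophil/mast-like cluster 11 had Fcer1g at 156% and 173% of the macrophage-like level, Fcgr3 at 73.5% and 55.1% and Fcgr2b at 53.3% and 37.5%, with C1q at 24.3% and 8.84%. S100a8 was at 439 CPM there with β-glucan and had no UMI with PBS. Natural killer-like cluster 13, which also carried T cell genes, had Fcer1g at 49.8% and 67.1%, with C1q at 22.8% and 11.9%. Its Fcgr3, the CD16 gene of natural killer cells, was at 30.2% and 19.1%, closer to C1q, and its Fcgr2b at 42.3% and 35.2%. Stromal-like cells had Fcgrt at 71.0% and 79.8% and C1q at 3.12% and 3.71%, and the 4 Fc gamma receptor genes there had 33 and 46 UMIs in all. T cell-like cluster 10 had C1q at 19.8% and 14.7% and Fcgr3 at 22.8% and 20.7%. Its Fcgr2b was at 27.4% and 28.1% and its Fcgr1 at 24.5% and 39.3%. A level above that of C1q therefore does not by itself assign a gene to the cells of a cluster.

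Neutrophils are needed for K/BxN-STA, and neutrophil-like cluster 9, with 249 β-glucan and 171 PBS cells, held unequal amounts of the macrophage genes C1q in the 2 libraries. Its C1q level was 59.5% of the macrophage-like level with β-glucan and 31.6% with PBS. Beside this, Fcgr1 was at 39.4 and 13.8 CPM, Fcgr2b at 295 and 172 CPM, Fcgrt at 142 and 93.4 CPM, Fcgr3 at 302 and 292 CPM, and Fcgr4 at 21.7 and 59.5 CPM. The neutrophil gene S100a8 was at 7156 and 11970 CPM. At a resolution of 1 neutrophil-like cells fell into a part with few UMIs per cell, at medians of 4088.5 and 4378, and a part with many, at medians of 18193 and 18292.5. The highest Scrublet scores were those of 328 β-glucan and 210 PBS cells, 5.76% and 4.61% of the kept cells. These shares were set by the number of barcodes and not by the caller. The highest scores took in 21.5% (β-glucan) and 75.0% (PBS) of the cells with many UMIs, against 1.75% and 1.59% of the cells with few. Whether the cells with these scores are doublets was not tested. Cluster 9 as a whole had an Fcgr2b share of 44.9% and 32.0% of receptor UMIs, and without the cells of highest Scrublet score 45.4% and 10.0%.

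The 114 β-glucan and 126 PBS neutrophil-like cells with few UMIs had an Fc receptor set of their own. Fcgr3 was at 227 CPM (189 to 269) and 248 CPM (210 to 291), and Fcgr4 at 73.8 CPM (53.2 to 99.8) and 133 CPM (106 to 165), while Fcgr2b was at 61.5 CPM (42.8 to 85.5) and 23.0 CPM (12.6 to 38.6). Fcgr1 had 2 and 1 UMIs and Fcgrt 5 and 4 UMIs in all. The Fcgr2b share of receptor UMIs was 16.8% (12.0 to 22.6) and 5.67% (3.13 to 9.33), below each large cluster of the compartment. C1q remained at 550.1 CPM with β-glucan and 187 CPM with PBS even here, and its part in the difference of Fcgr2b was not tested. Fcgr4 had a log2 ratio of β-glucan over PBS of -0.85 (-1.42 to -0.29). The neutrophil gene Csf3r was at 2554 and 2577 CPM. Other neutrophil genes differed between these cells, S100a8 with a log2 ratio of 0.31 (0.28 to 0.34) and Il1b with -0.19 (-0.23 to -0.14). The part of C1q and of the neutrophil genes in the Fcgr4 difference was not tested.

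**Figure D4:**
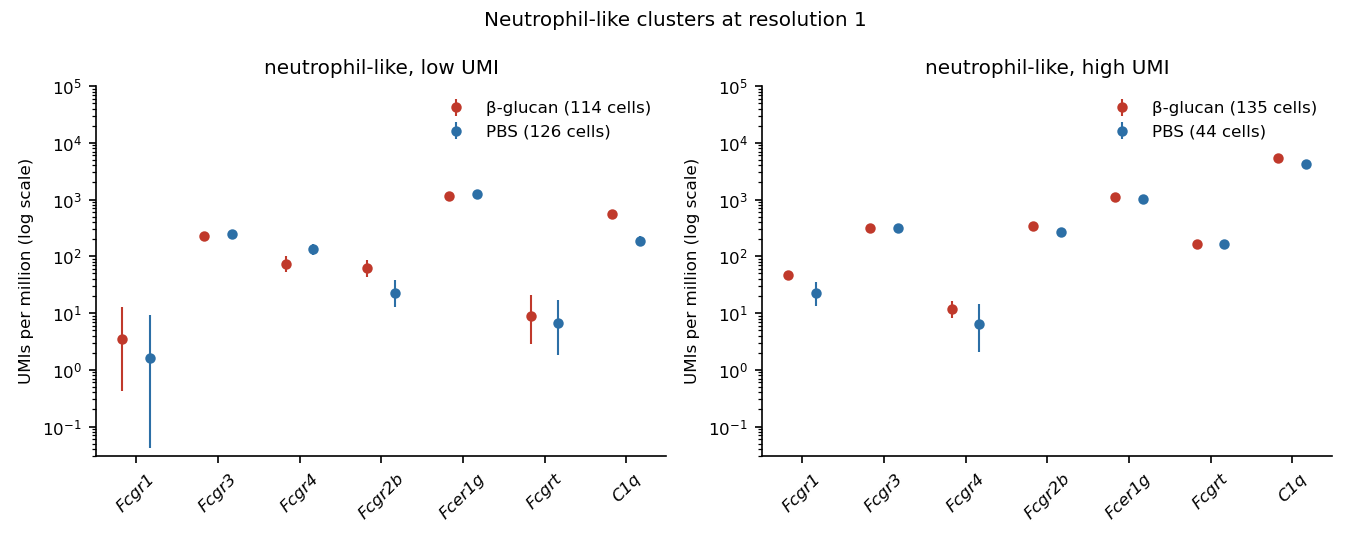
Level of each gene and of C1q (sum of C1qa, C1qb and C1qc) in CPM on a log scale (vertical axes) in the neutrophil-like clusters with few UMIs per cell (left) and many (right) at a resolution of 1, for β-glucan (red) and PBS (blue), with 95% Poisson intervals. In the cells with few UMIs, Fcgr1 rests on 2 and 1 UMIs, while Fcgr4 is at 73.8 and 133 CPM.

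The comparison of the 2 libraries asks whether pre-treatment with β-glucan before arthritis went with another level of the antibody receptors in synovial myeloid cells at day 17. Levels over the compartment also depend on how many cells each cluster gave. Cluster 4 held 367 of 4598 β-glucan and 527 of 3653 PBS cells, and cluster 16 held 16 and 77. Ratios over the compartment therefore mix its make-up by cluster with levels inside clusters. Over the compartment, Fcgr1 was at 40.9 CPM (39.4 to 42.5) with β-glucan and 43.0 CPM (41.3 to 44.7) with PBS, and Fcgr3 at 326 CPM (321 to 330.2) and 330.4 CPM (326 to 335). The intervals of their log2 ratios, -0.071 (-0.15 to 0.0080) and -0.020 (-0.048 to 0.0075), both held 0. Fcgr2b was at 272 CPM (268 to 276) and 298 CPM (294 to 303), a log2 ratio of -0.13 (-0.16 to -0.10).

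Fcer1g was at 1189.7 CPM and 1251 CPM, a log2 ratio of -0.073 (-0.087 to -0.058), and Fcgrt at 213 CPM and 197 CPM, a log2 ratio of 0.11 (0.073 to 0.14). Fcgr4 was at 5.32 CPM (4.77 to 5.91) and 6.62 CPM (5.99 to 7.31), on 347 and 399 UMIs, a log2 ratio of -0.32 (-0.53 to -0.11). Of the 6 genes, 5 thus had a log2 ratio below 0, but among them the intervals of Fcgr1 and Fcgr3 held 0. A ratio below 0 was also found for 42.1% of all genes with at least 5 CPM, and for 59.4% of those spanning 5 to 20 kb. Of the 6 genes, 1, Fcgr4, passed 1.2-fold, downward. Of the 9806 genes whose mean reached 5 CPM, 4.41% were at least 1.2-fold lower and 6.87% at least 1.2-fold higher, and none of the 6 genes was among the latter. Fcgr4 stood at rank 9507 of these genes by mean CPM. With each cell given equal weight its log2 ratio was -0.63, and with each cluster given equal weight -0.26, which no longer passed 1.2-fold.

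Apart from Fcgr4, the log2 ratios lay between -0.24 and 0.30, the bounds that leave out the lowest 5% and the highest 5% of genes. The median log2 ratio of all 9806 genes was 0.029, and that of the 6 was -0.072. The 6 genes span 5.08 to 17.99 kb, and the 2991 genes that span 5 to 20 kb had a median of -0.029 with 59.4% of them lower with β-glucan, against 42.1% of all genes. Whether reads in introns were counted bears on genes by span and was not tested. In their place among all genes, 36.5% had a lower log2 ratio than Fcgr3, 24.7% than Fcgr1, 24.2% than Fcer1g, 13.8% than Fcgr2b, 3.21% than Fcgr4 and 71.3% than Fcgrt.

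Cluster by cluster, Fcer1g was lower with β-glucan in 7 of the 8 clusters with over 50 cells per library, each time with an interval below 0. Its log2 ratios ran from -0.21 in cluster 7 to 0.029 in cluster 4. The pattern was not particular to Fcer1g. C1q and Tyrobp were also lower in the same 7 clusters, with intervals below 0, and higher in cluster 4, and B2m was lower in all 8. The share of all genes lower in each cluster was not taken. Fcgr1 was also lower in 7 of 8 clusters, in 4 of them with an interval below 0, and higher in APC-like cluster 4, at 17.3 against 11.6 CPM with a log2 ratio of 0.57 (0.22 to 0.91). The macrophage genes C1q and Apoe were higher with β-glucan in cluster 4 too, at 2228 against 1863 CPM and at 1391 against 744 CPM, and their part in the Fcgr1 difference was not tested. Fcgr2b was lower in 6 of 8 clusters, in 3 of them with an interval below 0, and by most in cluster 0, at -0.23 (-0.30 to -0.16). C1q was lower with β-glucan in cluster 0 as well, at 8271 against 9438 CPM. Fcgr3, whose compartment interval held 0, was lower in 6 of 8 clusters too, in 3 of them with an interval below 0. Its log2 ratios ran from -0.14 (-0.24 to -0.032) in cluster 5 to 0.019 (-0.060 to 0.099) in cluster 4.

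Fcgr4 had its widest difference among these clusters in APC-like cluster 6, at 10.9 CPM on 67 UMIs against 20.9 CPM on 110 UMIs, a log2 ratio of -0.93 (-1.40 to -0.48), and cluster 2 had -0.80 (-1.46 to -0.16). In cluster 6 C1q was at 7573 and 8244 CPM and S100a8 at 9.46 and 3.42 CPM. In the other 6 clusters its interval held 0. Fcgrt was lower in 4 and higher in 4 clusters, with a log2 ratio of -0.11 in cluster 0, where it was highest, and of 0.29 in cluster 2. In cluster 1, next to cluster 0 in its level, the value was -0.048 (-0.11 to 0.018). Its higher level over the compartment was thus not seen in clusters 0 and 1, the richest in Fcgrt of these 8. Monocyte-like cluster 19, with 20 β-glucan and 23 PBS cells, had log2 ratios of 1.59 (0.89 to 2.33) for Fcgr1, 0.91 (0.37 to 1.46) for Fcgr2b, 0.043 (-0.47 to 0.55) for Fcgr3 and -1.05 (-2.0 to -0.18) for Fcgr4. In this cluster the neutrophil genes S100a8 and S100a9 were at 414 and 8636 CPM and at 409 and 10821 CPM, while C1q was at 1008 and 1118 CPM, 13.2% and 13.8% of the macrophage-like level. The part of these genes in the Fcgr4 and other differences of this cluster was not tested.

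**Figure D5:**
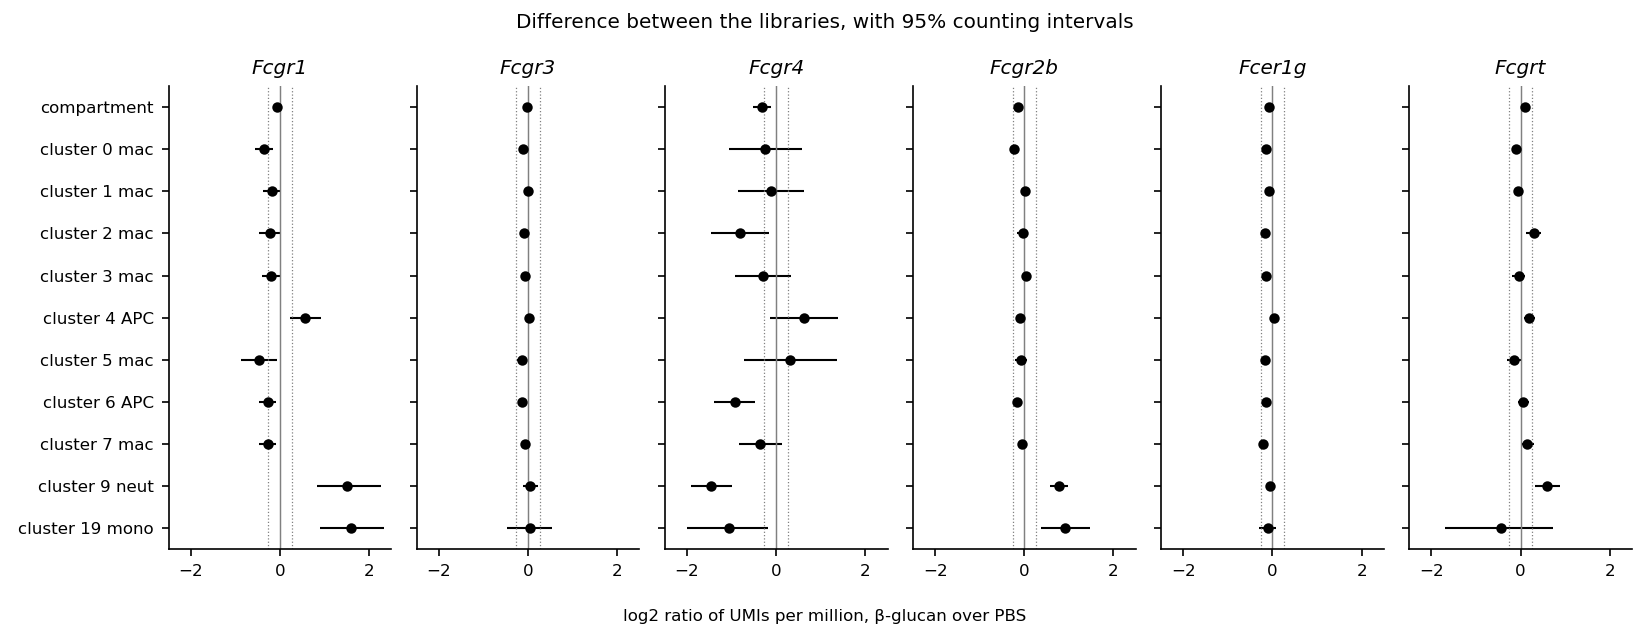
Log2 ratio of CPM, β-glucan over PBS (horizontal axes), for each gene in the compartment, its 8 clusters with over 50 cells per library, neutrophil-like cluster 9 and monocyte-like cluster 19 (vertical axis), with 95% intervals of counting error and dotted lines at 1.2-fold. Fcgr1 lies above 0 in clusters 4, 9 and 19 and below 0 in the other 7 clusters, and Fcgr4 is lowest in cluster 9, at -1.46. Neither part of the neutrophil-like cells at a resolution of 1 had this Fcgr4 value. It was -0.85 (-1.42 to -0.29) in those with few UMIs and 0.89 (-0.46 to 2.60) in those with many, of 135 β-glucan and 44 PBS cells.

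The genes that act with the receptors were read over the compartment in lists. Of 22 measured ITAM kinases and adaptors, 19 were higher and 3 lower with β-glucan, their median log2 ratio was 0.073, and 1 passed 1.2-fold. For these lists the values over all 9806 genes are 42.1% lower with β-glucan, a median of 0.029, and 6.87% and 4.41% past 1.2-fold upward and downward. Most of the measured ITAM genes span over 20 kb, and no list was set beside genes of like span. The ITAM gene past 1.2-fold was Lcp2, the adaptor SLP-76, at 129 and 101 CPM with a log2 ratio of 0.35. Syk, the kinase that docks on phosphorylated ITAMs, was at 291 and 272 CPM. Of 12 inhibitory phosphatases, adaptors and ubiquitin ligases, 8 were higher and 4 lower, with a median of 0.066, and 1 passed. Ubash3b, a phosphatase that acts on Syk-type kinases, was at 342 and 242 CPM with a log2 ratio of 0.50, while Inpp5d, the phosphatase SHIP-1 that FcγRIIB recruits, was at 620.4 and 679 CPM with a log2 ratio of -0.13. Ubash3b and Lcp2 span 151 and 45.5 kb.

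Of 5 measured genes among sister adaptors and other receptors that pair with the FcRγ chain, 2 were higher and 3 lower, with a median of -0.055, and none passed 1.2-fold. Tyrobp, the related ITAM adaptor DAP12, was at 1039 and 1079 CPM, a log2 ratio of -0.055 beside that of Fcer1g. Of 13 other Fc receptor and Fc receptor-like genes, 2 were measured, the cytosolic antibody receptor Trim21 at 7.94 and 7.12 CPM and the Fc receptor-like gene Fcrls at 34.7 and 45.6 CPM, which passed 1.2-fold downward with a log2 ratio of -0.39, for a median of -0.12. Of 12 other ITIM receptors, 8 were higher and 4 lower, with a median of 0.092, and 1, Cd72, passed 1.2-fold, at 28.9 and 35.3 CPM with a log2 ratio of -0.29. Of 12 genes of phagocytosis and the oxidative burst, 4 were higher and 8 lower, with a median of -0.070, and none passed.

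Among 8 receptors for cytokines and C5a that are known to set the balance of Fc gamma receptors, 5 were higher and 3 lower, with a median of 0.087. C5ar2, the second C5a receptor, was at 12.1 and 9.93 CPM with a log2 ratio of 0.29 and passed 1.2-fold, and C5ar1 was at 241 and 232 CPM. B2m, the light chain of FcRn, was at 1167 and 1288 CPM with a log2 ratio of -0.14, in the opposite direction to Fcgrt. Of 8 immunoglobulin heavy chain genes, 1, Ighm, was measured, at 76.5 and 74.8 CPM, a log2 ratio of 0.033. Ighg1, Ighg2c and Ighg3 had no UMI in the compartment and Ighg2b 1 UMI, so production of IgG by compartment cells could not be detected, and the injected IgG itself leaves no RNA.

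Monocyte-like cluster 19, highest by mean for Fcgr1 and Fcgr4, held 43 cells and was left out of the correlations below. The genes most like each member over 19 clusters of at least 50 cells were taken by Pearson correlation of log2(CPM + 1) among 7429 genes. These correlations share the libraries and the contrast of myeloid with other clusters. For Fcgr1 they were Ms4a7 (0.96), C1qb (0.96) and Adgre1 (0.95), and for Fcgr3 they were C3ar1 (0.96), Adgre1 (0.95) and Cd33 (0.95). Fcgr2b was most like Rassf4 (0.94), Prkcd (0.93) and Nrros (0.93), and Fcer1g most like Tyrobp (0.95), Pik3r6 (0.94) and Naip2 (0.91).

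Fcgr4 was most like Clec4n (0.84), Clec4d (0.83) and Il1rn (0.83), and the genes like Fcgrt included Agmo (0.89) and Gas6 (0.85). Between the members, Fcgr3 was most like Fcgr1 and Fcer1g, with 0.93 for each. Fcgr2b reached 0.78 with Fcgr3, and Fcgrt 0.38 at most, with Fcgr1.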

How the data were processed

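CD45+CD11b+ synovial cells were measured as 1 droplet library (10x Chromium) per group. The deposited counts are unique molecular identifiers (UMIs) by gene and barcode, which the authors obtained with Cell Ranger 7.0.0 on GRCm39 and Ensembl genes, without normalization. The submitters' processing notes also name mm10. Whether intronic reads were counted is not given in the sources used here. The libraries held 81611849 (β-glucan) and 73874602 (PBS) UMIs over 7196 and 5760 barcodes.

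Cells were kept from 500 genes upward and up to 10% mitochondrial UMIs. After sctransform 0.4.2 they were clustered by the Louvain method at a resolution of 0.7 (Seurat 5.3.0 in R 4.3.3), merged without integration, on 20 neighbours in 30 principal components of 3000 variable genes. The 6 members and 16 genes that the study compares were left out of the principal components. Clusters were named from marker lists if at least 3 markers were each detected in 25% of cells, by the class leading among the 10 genes of highest fold or else by score. Monocyte-like cells were not counted to the compartment. UMIs were summed per library and cluster in Python 3.11.15 (numpy 2.4.6, scipy 1.17.1, pandas 2.3.3). Log2 ratios have exact conditional binomial intervals. Cells were thinned to 2000 UMIs, or to 8000 in the compartment, for shares of cells. Scrublet and Leiden clustering ran in scanpy 1.11.5 (leidenalg 0.10.2), and TMM factors came from edgeR 4.0.16. Gene positions and overlaps came from a later annotation than the authors' (GENCODE on GRCm39), which held 31870 of the 32524 gene identifiers.

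Genes named were the 6 members, each listed gene past 1.2-fold, and the 3 genes most like each member by correlation, of which 1 is not reported here. C1q, Apoe, S100a8, S100a9, Il1b and Csf3r levels, Syk, Inpp5d, C5ar1, Trim21, Tyrobp, Ighm, the IgG genes and B2m were named beside these after their values were seen. The members and the gene lists were chosen with earlier results of these data known. The scripts were tested on simulated sums. Alternatives were other filters on cells, resolutions of 0.5 and 1, Leiden clustering, all genes in the principal components, cells of highest Scrublet score left out, other totals, TMM factors, equal weight per cell or cluster, thinned cells, other minimums (1 and 50 CPM) and, added after the data were seen, the compartment without cluster 16.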

Additional observations from a re-analysis of the deposited data

Results flagged for a closer look

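Each of the 6 genes was read in 20 clusters. In 5 clusters a gene's log2 ratio of β-glucan over PBS had an interval on the other side of 0 from that of the main myeloid compartment. Fcgr1 and Fcgr3, whose compartment intervals held 0, could not be flagged in this way. Fcgr1 was at 1.51 (0.83 to 2.26) in neutrophil-like cluster 9, and its intervals lay above 0 in clusters 4 and 19 too. The difference between cluster and compartment was not tested. Fcgr2b, at -0.13 in the compartment, was at 0.78 (0.58 to 0.99) in neutrophil-like cluster 9, where C1q was 59.5% of the macrophage-like level with β-glucan and 31.6% with PBS and S100a8 at 7156 and 11970 CPM. It was at 0.91 (0.37 to 1.46) in monocyte-like cluster 19, on 66 and 52 UMIs of 20 and 23 cells, with C1q at 13.2% and 13.8% and the neutrophil genes S100a8 at 414 and 8636 CPM and S100a9 at 409 and 10821 CPM. In B cell-like cluster 8 it was at 0.40 (0.10 to 0.71), with C1q at 7.77% and 6.30%, S100a8 at 109 and 1.99 CPM, S100a9 at 198 and 4.65 CPM and Ighg2b with 0 and 67 UMIs. Fcer1g, at -0.073 in the compartment, was at 0.65 (0.48 to 0.82) in unnamed cluster 16, led by Arg1, of which 16 cells came from the β-glucan library and 77 from the PBS library. Between these cells other genes differed too, with Apoe at 5281 and 276 CPM, Ighm at 178 and 14.3 CPM, C1q at 8809 and 5449 CPM and S100a8 had 8 and 2 UMIs. Fcgrt, at 0.11 in the compartment, was at -0.11 (-0.17 to -0.048) in macrophage-like cluster 0, where it was highest and where C1q was at 8271 and 9438 CPM. The part of these other genes in the differences was not tested.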

How the results depend on the processing

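No paired analysis was possible because each group is 1 library. Each of the 6 log2 ratios kept its direction under each alternative run. The ratios left their counting intervals as follows. With equal weight per cluster, Fcgr1 was -0.20, Fcgr2b -0.10, Fcgr3 -0.051, Fcer1g -0.037 and Fcgrt 0.23, and 0 genes were at least 1.2-fold lower. These means give full weight to cluster 16, of 16 β-glucan and 77 PBS cells, with Fcgrt at 395 and 128 CPM and Fcer1g at a log2 ratio of 0.65. Equal weight per cluster without cluster 16 was not run. With equal weight per cell, Fcgr1 was -0.17, Fcgr4 -0.63 and Fcer1g -0.095. In cells thinned to 8000 UMIs, Fcgr3 was -0.080, Fcer1g -0.11 and Fcgrt 0.055, and with TMM factors, which moved the median of all genes by -0.019, Fcer1g was -0.092. At a minimum of 50 CPM, Fcgr4 was not measured and 0 genes were lower by 1.2-fold. The Fcgr2b share in the compartment and in macrophage-like cells was 41.7% and 38.6% with β-glucan under the stricter filter. With Leiden clustering it was 56.1% (β-glucan) and 57.9% (PBS) in APC-like cells, 40.2% in PBS macrophage-like cells and 36.7% in PBS neutrophil-like cells. Without the cells of highest Scrublet score it was 10.0% in PBS neutrophil-like cells. The other 151 values stayed within their intervals or counts, among them all those without cluster 16. With 1 library per group, no alternative replaces a replicate. Counting error limits Fcgr4 in the macrophage-like clusters and each value of monocyte-like cluster 19.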
